A study of Mus musculus with 6 samples.

Results

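The interleukin-1 family genes described here were chosen by name: Il1a, Il1b, Il18 and Il33, which encode agonist cytokines, Il1rn and Il18bp, which encode secreted inhibitors, Il1r1, Il1rap and Il1r2, which encode receptor chains, and Casp1, which encodes the protease that cuts the precursors of interleukin-1 beta and interleukin-18. All 10 were found among the 27263 genes listed, through their Ensembl identifiers and the symbols of GENCODE M21. Their RNA was measured by sequencing in stromal cells from the bone marrow of C57BL/6 mice, sorted from tibia and femur marrow as Sca-1+ CD29+ CD45- CD11b- cells and cultured in medium with 10% serum. One group of 3 libraries came from cells given rGCA at 50 nM for 3 days, and the other of 3 libraries from cells given PBS, the buffer, for the same time. The labels do not spell out GCA; it is read here, from what is known of the study, as grancalcin, a protein of neutrophils and macrophages that binds calcium, with rGCA as the recombinant protein. No genetic change is named for either group, and the age and sex of the mice, and whether replicates came from separate animals or cultures, are not given in the labels. The p-values therefore measure only the spread between these libraries, which may be technical.

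Interleukin-1 alpha and interleukin-1 beta signal through the same receptor, formed by IL1R1 and the accessory protein encoded by Il1rap, and lead through MyD88 and IRAK kinases to NF-κB and MAP kinases. IL1R2 is a decoy receptor, and the receptor antagonist encoded by Il1rn occupies IL1R1 without starting a signal. Interleukin-1 beta and interleukin-18 are made as precursors that caspase-1 cuts inside inflammasomes, whereas the interleukin-1 alpha precursor is active uncut. Interleukin-18 has a receptor of its own and is held in check by the binding protein encoded by Il18bp. In marrow, macrophages are a main source of these cytokines, and stromal cells carry the interleukin-1 receptor and respond with chemokines, matrix proteases and acute phase proteins.

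Il1a and Il1b lie side by side on chromosome 2 of GRCm38, both on the minus strand, with 54597 bases between them. The 250 bases before the RefSeq start site of each are shown because these neighbours differed in level, and those of Il18 because it is the most abundant agonist transcript here. Sequences are from RefSeq on GRCm38.p6, 5′ to 3′ along the gene, for Il1a at chr2:129309973-129310222 (minus strand), Il1b at chr2:129371140-129371389 (minus strand) and Il18 at chr9:50554450-50554699 (plus strand). Capitals mark matches, on either strand, to the letters TATAAA of a TATA box. They also mark matches to the letters TGANTCA of an AP-1 site.
Il1a: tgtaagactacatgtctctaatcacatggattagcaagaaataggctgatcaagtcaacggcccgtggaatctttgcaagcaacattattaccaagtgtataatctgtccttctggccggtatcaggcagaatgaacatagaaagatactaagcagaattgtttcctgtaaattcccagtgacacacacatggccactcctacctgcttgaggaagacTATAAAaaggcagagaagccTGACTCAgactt
Il1b: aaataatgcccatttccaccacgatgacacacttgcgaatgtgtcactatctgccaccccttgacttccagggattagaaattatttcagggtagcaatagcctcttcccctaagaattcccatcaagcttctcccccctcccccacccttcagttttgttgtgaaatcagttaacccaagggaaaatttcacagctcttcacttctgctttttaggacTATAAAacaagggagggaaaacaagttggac
Il18: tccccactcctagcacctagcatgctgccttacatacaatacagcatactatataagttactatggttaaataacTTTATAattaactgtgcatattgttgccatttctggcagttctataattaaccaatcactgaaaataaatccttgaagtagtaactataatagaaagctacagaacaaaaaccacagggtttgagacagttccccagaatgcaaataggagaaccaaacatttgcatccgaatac
Il1a and Il1b each held TATAAA on the gene's own strand, at −32 to −27 and at −31 to −26 from the start. Il1a also held TGANTCA at −12 to −6, which Il1b did not. In Il18 the match to TATAAA was on the opposite strand at −175 to −170. Among 32536 windows of the same length over all RefSeq start sites, 12.3% held TATAAA and 6.73% held TGANTCA on either strand. The NF-κB consensus, found in 7.28% of windows, was in none of these 3. A match is a string of letters and does not show binding.

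Levels are FPKM, the fragments counted in a gene divided by its exon length and by the library total. Totals behind these values, inferred from the values themselves, were 17543509 to 18645932 fragments per library, so depth differed little. Fragments recovered over all matched genes summed to more, 18929244 to 19943239 per library, and the reason was not tested. The sort markers Ly6a (Sca-1) and Itgb1 (CD29) stood at 291 to 357 and 295 to 336 FPKM in GCA libraries, and at 255 to 331 and 336 to 368 in PBS libraries. Macrophage transcripts were abundant although the sort excluded CD45+ and CD11b+ cells. Lyz2 stood at 8078 to 9691 FPKM in GCA libraries and 12625 to 14220 in PBS libraries, and C1qa at 1843 to 1972 in GCA libraries and 1360 to 1586 in PBS libraries. Of the markers sorted against, Ptprc (CD45) stood at 12.9 to 14.5 FPKM with GCA and 12.003 to 13.2 with PBS, and Itgam (CD11b) at 24.9 to 40.9 with GCA and 36.7 to 43.1 with PBS, and neither passed the test described below (adjusted p = 0.372 and 0.244). In bulk RNA, fewer cells of a type and less RNA per cell cannot be told apart.

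With GCA, Il1a, Il18 and Il18bp rose and Il1rn fell, while Il1rap and Casp1 did not pass the test. The test was limma-trend on log2(FPKM + 1), with Benjamini-Hochberg adjustment over the 11984 genes that averaged 1 FPKM or more, and a threshold of 0.05. Of the 10 genes 7 reached that level, 3 of them rose, 1 fell and 3 did not pass, and Il1b, Il33 and Il1r2 were too low to be tested. Over all tested genes 17.9% passed, 11.5% higher with GCA and 6.43% lower. That is 1380 genes higher and 771 lower, which quantile normalization turned into 1198 and 1027. The median log2 fold change of the 7 genes was 0.04, against 0.01 over all tested genes. The GCA and PBS libraries did not overlap in 5 of the 7 genes, against 38.5% of all tested genes. The 3 rises were called on leaving out any 1 library, whereas the fall of Il1rn was lost without each of 4 libraries named below.

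**Figure D1:**
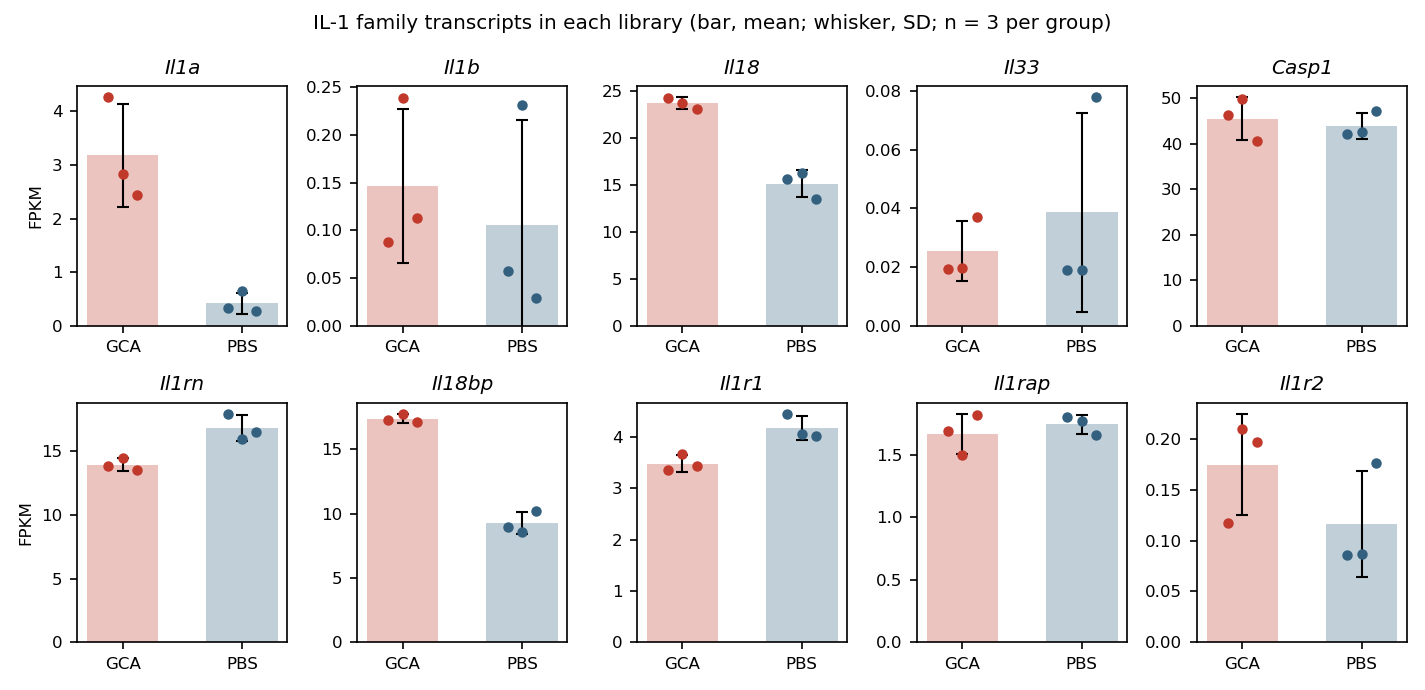
FPKM of the 10 genes in each library, GCA left and PBS right, with points for libraries, bars for means and whiskers for the SD (n = 3 per group; each panel has its own axis from 0, where the whisker of Il1b is cut). Il1a, Il18 and Il18bp are higher in all 3 GCA libraries than in any PBS library, Il1rn and Il1r1 are lower, and the other 5 genes overlap.

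Il1a, the agonist that needs no cutting, had the largest change of these genes. It stood at 4.26, 2.83 and 2.45 FPKM in GCA replicates 1 to 3, against 0.33, 0.64 and 0.28 FPKM in PBS replicates 1 to 3. The groups did not overlap, and GCA replicate 1 was the highest library. Multiplied back by exon length, these levels are 150, 98 and 90 fragments in GCA libraries, against 12, 23 and 10 fragments in PBS libraries. The summed 338 fragments with GCA have an exact 95% Poisson interval of 303 to 376, and the 45 with PBS one of 32.8 to 60.2, for counting error only. Il1a averaged 3.18 ± 0.95 FPKM in GCA cells and 0.42 ± 0.19 in PBS cells (SD, n = 3 each), a ratio of 7.57. That ratio was 6.28 without GCA replicate 1 and 10.3 without PBS replicate 2, the ends of its range on leaving out 1 library. Its log2 fold change was 1.54 (SE 0.169, limma adjusted p = 0.00132), the 13th largest rise of all tested genes. The pseudocount of 1 FPKM shrinks this value, and limma-voom on the recovered fragments gave 2.92 (SE 0.372, adjusted p = 8.23e-05). Il1a reached the mean of 1 FPKM through its GCA libraries alone, so a fit to every listed gene was also run and gave an adjusted p of 0.011. Its exons (ENSMUSG00000027399, chromosome 2, 129299610 to 129309972) share 222 bases with the antisense gene Gm14023. The sources used here do not say whether counting used strand, but Gm14023 held only 0 to 4 fragments in any library.

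Il1b, the classical inflammasome product, was close to undetected. It held 3, 8 and 4 fragments in GCA replicates 1 to 3, against 2, 8 and 1 fragments in PBS replicates 1 to 3. These correspond to 0.09, 0.24 and 0.11 FPKM with GCA and to 0.06, 0.23 and 0.03 with PBS, and the groups overlapped. The summed 15 fragments with GCA (exact 95% Poisson interval 8.40 to 24.7) and 11 with PBS (5.49 to 19.7) were not distinguishable at this depth. Il1a therefore made up 92.2% to 97.97% of the summed FPKM of the 2 agonists in GCA libraries, and 73.5% to 90.6% in PBS libraries. Il33, an alarmin of epithelial and stromal nuclei, held 1, 1 and 2 fragments in GCA libraries, against 1, 1 and 4 in PBS libraries. At that level no difference could be seen.

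Il18 (ENSMUSG00000039217, chromosome 9, 50554827 to 50581840), an agonist made as a stored precursor, was the most abundant agonist transcript in both groups. It stood at 24.3, 23.7 and 23.04 FPKM in GCA replicates 1 to 3, against 15.6, 16.3 and 13.5 FPKM in PBS replicates 1 to 3. The lowest GCA library lay above the highest PBS library. The means were 23.7 ± 0.62 FPKM with GCA and 15.1 ± 1.46 with PBS, a ratio of 1.57 (log2 0.62, SE 0.0694, limma adjusted p = 0.00124).

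Il18bp (ENSMUSG00000070427, chromosome 7, 102014885 to 102018690), whose product binds interleukin-18 and blocks it, rose as well. It stood at 17.3, 17.7 and 17.1 FPKM in GCA replicates 1 to 3, against 8.97, 8.59 and 10.2 FPKM in PBS replicates 1 to 3. The GCA values lay within 1 FPKM of each other and above each PBS value. The means were 17.4 ± 0.32 FPKM with GCA and 9.26 ± 0.85 with PBS, a ratio of 1.88 (log2 0.84, SE 0.0648, limma adjusted p = 0.000349). Within each library, Il18bp over Il18 was 0.71, 0.75 and 0.74 in GCA replicates 1 to 3, against 0.58, 0.53 and 0.76 in PBS replicates 1 to 3, so this ratio overlapped between groups. Il18bp shares 80 exonic bases with Numa1 on the opposite strand, and Numa1 averaged 16.0 FPKM with GCA and 15.4 with PBS and did not pass (adjusted p = 0.542).

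Il1rn (ENSMUSG00000026981, chromosome 2, 24336853 to 24351494), which encodes the receptor antagonist, was lower with GCA by a small amount. It stood at 13.9, 14.5 and 13.5 FPKM in GCA replicates 1 to 3, against 17.9, 16.01 and 16.5 FPKM in PBS replicates 1 to 3. The groups did not overlap. The means were 13.97 ± 0.49 FPKM with GCA and 16.8 ± 1.01 with PBS (log2 −0.25, SE 0.0564, limma adjusted p = 0.0194). The adjusted p was 0.0603 and 0.0613 on leaving out GCA replicates 1 and 3 in turn, 0.0522 and 0.0541 on leaving out PBS replicates 1 and 3 in turn, and 0.0671 when all listed genes were fitted. Set against its agonist within a library, Il1rn over Il1a was 3.26, 5.12 and 5.53 in GCA replicates 1 to 3, against 53.8, 24.9 and 58.1 in PBS replicates 1 to 3. The antagonist transcript thus exceeded that of Il1a in every library, and the ratios of the groups did not overlap. These ratios contain the rise of Il1a given above and are not a separate result. Those of PBS replicates 1 to 3 rest on 12, 23 and 10 Il1a fragments. RefSeq lists several start sites for Il1rn, of secreted and intracellular forms, which a single value per gene does not separate.

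**Figure D2:**
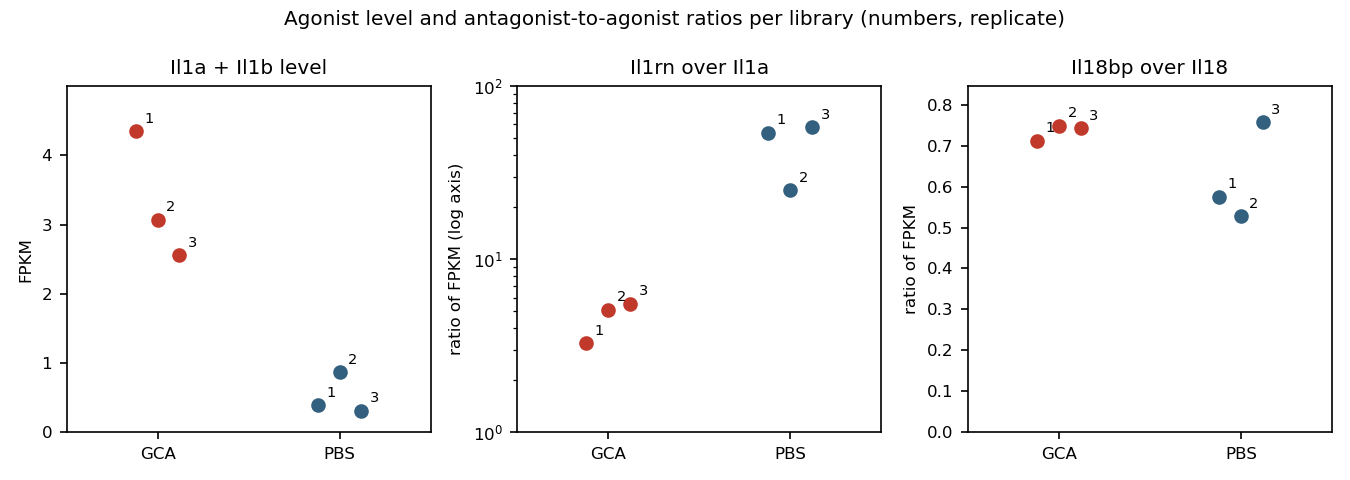
Summed FPKM of Il1a and Il1b (left), Il1rn over Il1a on a log axis (middle) and Il18bp over Il18 (right) in each library, GCA left and PBS right, with replicate numbers beside the points. The sum is 2.56 to 4.34 FPKM with GCA and 0.31 to 0.87 with PBS, Il1rn over Il1a is 3.26 to 5.53 with GCA and 24.9 to 58.1 with PBS, and Il18bp over Il18 overlaps.

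Among the receptor chains, Il1r1, the signalling receptor, was at 3.35, 3.66 and 3.43 FPKM in GCA replicates 1 to 3, against 4.45, 4.06 and 4.01 in PBS replicates 1 to 3. The groups did not overlap, but the log2 difference of −0.21 (SE 0.0633, 95% interval −0.35 to −0.06) missed the threshold (limma adjusted p = 0.0579). Other settings did call it lower: the adjusted p was 0.0349 after quantile normalization, 0.0461 after median centring, 0.0497 without trend and robust moderation and 0.0278 with limma-voom on fragments. Il1rap, the shared accessory chain, was at 1.69, 1.495 and 1.81 FPKM with GCA, against 1.80, 1.77 and 1.65 with PBS. Its values overlapped, with a log2 difference of −0.04 and a 95% interval of −0.22 to 0.13 (limma adjusted p = 0.746). The decoy Il1r2 held 4, 7 and 7 fragments with GCA, against 3, 3 and 6 with PBS, too few to be tested.

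Il1r2 and Il1r1 belong to a row of related receptor genes on chromosome 1, all on the plus strand between 40074079 and 40551705. Il1rl2, the interleukin-36 receptor, averaged 3.03 ± 0.09 FPKM with GCA and 3.15 ± 0.22 with PBS. Il1rl1, the interleukin-33 receptor ST2, averaged 1.07 ± 0.30 FPKM with GCA and 1.38 ± 0.19 with PBS. Neither passed (limma adjusted p = 0.708 and 0.281). Of the interleukin-18 receptor, the chain Il18rap averaged 0.56 ± 0.10 FPKM with GCA and 0.75 ± 0.03 with PBS, below the level tested. The ligand-binding chain Il18r1 held 1, 1 and 0 fragments in GCA libraries and none in the PBS libraries, where a count of 0 allows up to 3 fragments per library. Transcripts of interleukin-18 and of its binding protein were thus measured in libraries where that receptor chain was at the floor. In the list of 12 other family ligands and receptors, 2 were tested and none passed, by limma-trend or limma-voom and with 0 at an unadjusted p under 0.05, 7 were below the level tested and 3 (Il36a, Il36b and Il1rapl2) were not analysed here. Of the interleukin-36 genes measured, Il36g held 0 to 2 fragments and Il36rn 0 to 1.

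Casp1 (ENSMUSG00000025888, chromosome 9, 5298517 to 5307265), the protease, had the highest level of the 10 genes in both groups. It stood at 46.3, 49.7 and 40.5 FPKM in GCA replicates 1 to 3, against 42.1, 42.6 and 47.3 in PBS replicates 1 to 3. The groups overlapped, and the log2 difference was 0.04 with a 95% interval of −0.14 to 0.23 (limma adjusted p = 0.742). By mean FPKM the order with GCA was Casp1, Il18, Il18bp, Il1rn, Il1r1, Il1a, Il1rap, Il1r2, Il1b and Il33. With PBS, Il1rn came before Il18 and Il18bp, and Il1a came after Il1rap. The ranges of Il1r1 and Il1a with GCA, of Il1rn and Il18 with PBS, of Il1b and Il33 with PBS, and of Il1r2 and Il1b in both groups overlapped.

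**Figure D3:**
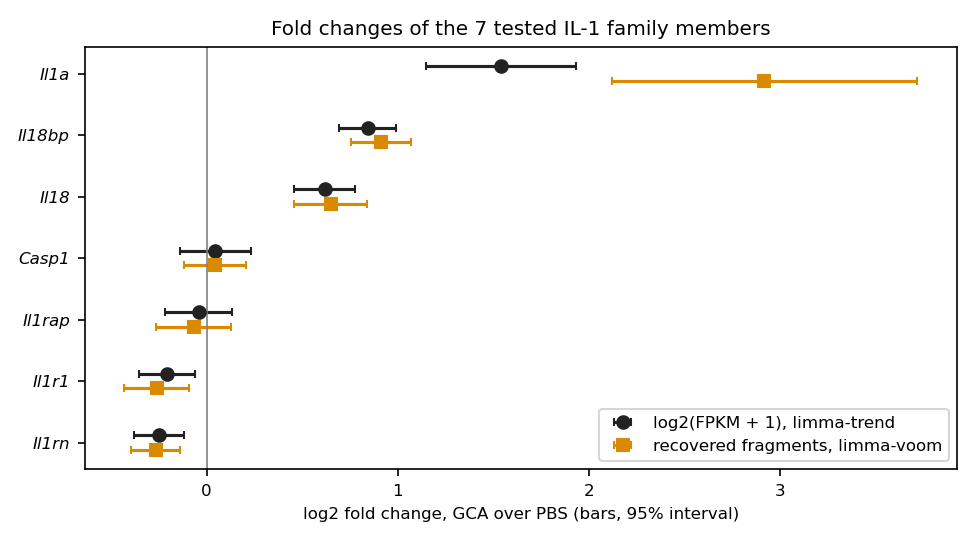
Log2 fold change, GCA over PBS, of the 7 tested genes with 95% intervals, from limma-trend on log2(FPKM + 1) (circles) and limma-voom on recovered fragments (squares). Both fits place Il1a, Il18bp and Il18 above 0 and Il1rn and Il1r1 below it; Il1a has 1.54 on the first scale and 2.92 on the second.

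Genes of inflammasomes and of cytokine release rose in part. Of 22 listed genes 20 were tested, 7 rose, 1 fell and 12 did not pass; their median log2 fold change was 0.09. Over all tested genes, 11.5% rose and 6.43% fell. P2rx7, the ATP-gated channel that triggers the NLRP3 inflammasome, rose to 10.9, 10.7 and 11.2 FPKM with GCA, against 6.73, 7.28 and 7.31 with PBS (log2 0.56, limma adjusted p = 0.000597). Capn1, a subunit of calpain, the protease family that cuts the interleukin-1 alpha precursor, averaged 20.3 ± 0.70 FPKM with GCA and 16.5 ± 0.90 with PBS (adjusted p = 0.0104). Both were called on leaving out any 1 library. Pycard, the inflammasome adaptor ASC, averaged 7.65 ± 0.70 FPKM with GCA and 5.88 ± 0.40 with PBS (adjusted p = 0.0193). The sensors Nlrp1b, Aim2 and Naip5 also rose, with adjusted p = 0.0143, 0.0464 and 0.0483, and Nlrp1b and Naip5 have close paralogs with which reads could be shared. Txnip, a thioredoxin-binding protein, averaged 35.8 ± 4.89 FPKM with GCA and 26.7 ± 1.71 with PBS (adjusted p = 0.0283). The channel Panx1 fell, with 5.52 ± 0.54 FPKM with GCA and 7.21 ± 0.74 with PBS (adjusted p = 0.0334).

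The most abundant listed genes that did not pass were Ninj1, a membrane rupture protein, Gsdmd, the pore former cut by caspase-1, Capn2 and Casp8. Gsdmd averaged 48.4 ± 1.33 FPKM with GCA and 46.6 ± 0.96 with PBS. Nlrp3 itself, named after its values were seen, averaged 16.2 ± 2.03 FPKM with GCA and 15.5 ± 1.77 with PBS (adjusted p = 0.761). Several calls were lost when a single library was left out. The count of 8 became 5 and 4 on leaving out GCA replicates 1 and 3 in turn, and 3, 4 and 3 on leaving out PBS replicates 1, 2 and 3 in turn. The share called over all tested genes fell in the same fits, from 17.9% to 11.5% and 12.8% without those GCA libraries. It was 12.2%, 10.9% and 10.3% without PBS replicates 1, 2 and 3. Naip5 and Aim2 were lost without each of the 6 libraries, Panx1 without each but PBS replicate 2, and Txnip without GCA replicate 3 or any PBS library. Naip5 and Aim2 were also lost after median centring and without trend and robust moderation. The fit to every listed gene called 3 of 21 in the list, Capn1, Nlrp1b and P2rx7, against 3.94% of all listed genes. For Pycard the adjusted p was 0.0653 on leaving out PBS replicate 1 and 0.0593 on leaving out PBS replicate 3, and for Nlrp1b it was 0.0536 on leaving out PBS replicate 2.

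Of 22 genes of interleukin-1 receptor signalling 21 were tested, and 1 passed, against 17.9% of all tested genes. Mapk14, the p38 alpha kinase, averaged 37.4 ± 1.82 FPKM with GCA and 32.1 ± 0.76 with PBS (log2 0.22, limma adjusted p = 0.0221). Its adjusted p was 0.0554 to 0.0678 without GCA replicate 3 or any one of the PBS libraries, which leaves no call in the list, and there were 2 calls without GCA replicate 1 and 3 without GCA replicate 2. The adaptor Myd88 averaged 24.6 ± 1.70 FPKM with GCA and 25.01 ± 0.63 with PBS, and the NF-κB subunit Rela 33.1 ± 1.116 FPKM with GCA and 32.4 ± 1.115 with PBS, and neither passed. Irak3, an inhibitory kinase of the pathway, was at 19.1, 27.48 and 13.6 FPKM in GCA replicates 1 to 3, against 33.5, 31.2 and 27.46 in PBS replicates 1 to 3. It did not pass (adjusted p = 0.14), and without GCA replicate 2, whose value lay inside the PBS range, its log2 difference was −0.88 (adjusted p = 0.0187). The median log2 fold change of the 21 genes was −0.03.

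Of 36 genes that interleukin-1 is known to induce in stromal cells 30 were tested, 1 rose, 2 fell and 27 did not pass; their median log2 fold change was −0.08. Over all tested genes 11.5% rose and 6.43% fell. Vcam1, an adhesion molecule, rose to 55.6, 50.04 and 53.8 FPKM with GCA, against 27.9, 30.1 and 27.7 with PBS (log2 0.87, limma adjusted p = 0.00025). The neutrophil chemokine Cxcl5 fell to 9.56, 9.97 and 6.62 FPKM with GCA, against 29.5, 24.5 and 22.9 with PBS (log2 −1.47, adjusted p = 0.00279). Ccl20 fell to 1.58, 0.84 and 0.45 FPKM with GCA, against 2.78, 2.33 and 2.05 with PBS (adjusted p = 0.0319), and its adjusted p was 0.0679 to 0.097 without GCA replicate 2 or any one of the PBS libraries. The count of 3 was 5 without GCA replicate 1, where the share over all tested genes was 11.5%, against 17.9% with all libraries. Ccl20 reached the level tested through its PBS libraries alone, and its fall was not called in the fit to every listed gene (adjusted p = 0.0961) or with pseudocounts of 0.1 and 0.01 FPKM (adjusted p = 0.055 and 0.061).

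The acute phase gene Saa3 was at 1834, 4061 and 1446 FPKM in GCA replicates 1 to 3, against 2190, 2613 and 2163 in PBS replicates 1 to 3. GCA replicate 2 thus stood above all PBS libraries and the other GCA libraries below them, and Saa3 did not pass (adjusted p = 0.93). Lcn2, named after its values were seen, had the same order, at 10.8, 141.01 and 7.77 FPKM with GCA, against 35.9, 44.01 and 32.1 with PBS. Without GCA replicate 2 both were called lower, with log2 differences of −0.51 for Saa3 (adjusted p = 0.0449) and −1.90 for Lcn2 (adjusted p = 0.00488). Il1a was called with or without that library. Mmp13, a collagenase, averaged 329 ± 16.7 FPKM with GCA and 330.2 ± 3.70 with PBS, and the chemokines Ccl2 and Ccl7 did not pass. Il6, a further classical target named after its values were seen, was below the level tested, at 0.25, 0.23 and 0.27 FPKM with GCA, against 0.47, 0.52 and 0.30 with PBS.

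**Figure D4:**
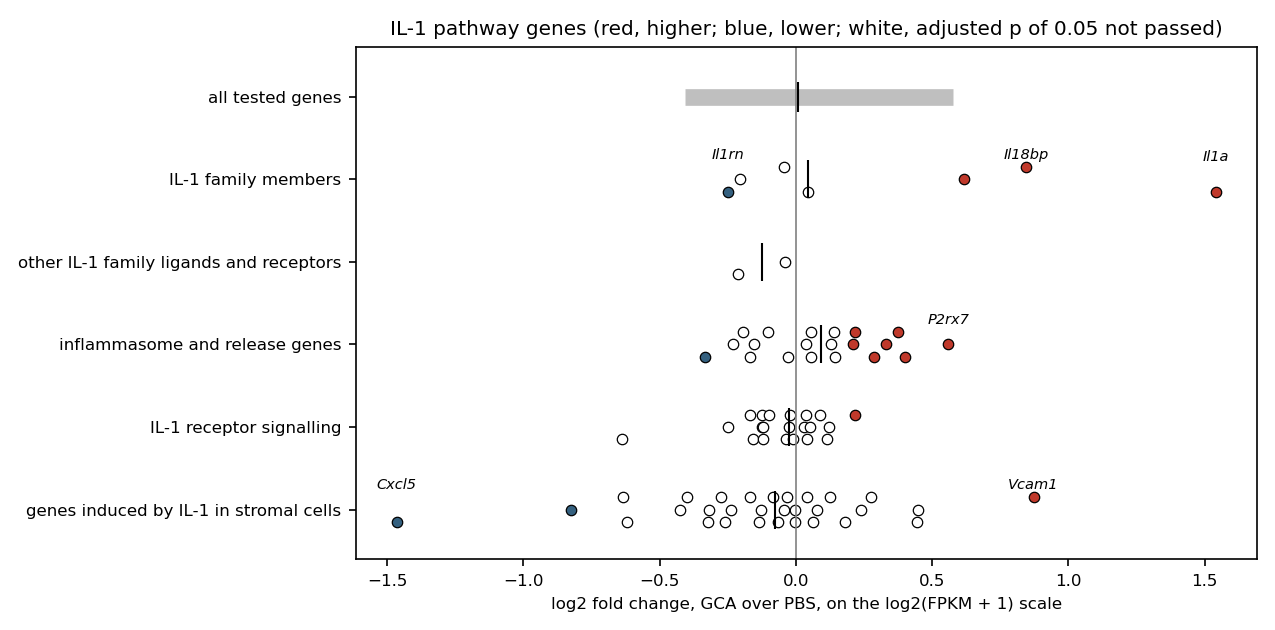
Log2 fold change, GCA over PBS, on the log2(FPKM + 1) scale for each tested gene of 5 lists (red, higher; blue, lower; white, threshold not passed), with list medians as vertical ticks and, at the top, the central 95% of all 11984 tested genes as a grey band from −0.41 to 0.58. Called genes outside the band are Il1a at 1.54, Il18bp at 0.84, Il18 at 0.62, Vcam1 at 0.87, Cxcl5 at −1.47 and Ccl20 at −0.83. White points below the band include Irak3 at −0.64 and Lcn2 at −0.63. The signalling list centres near 0.

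Macrophages are a known source of Il1a, Il1rn, Il18, Il18bp and Casp1 transcripts, and some macrophage markers moved in the same libraries. Of 20 listed markers 18 were tested, 9 rose, 1 fell (Lyz2) and 8 did not pass, against 11.5% higher and 6.43% lower over all tested genes. The 9 that rose were Cd68, Fcgr1, Mrc1, C1qa, C1qb, C1qc, Laptm5, Fcer1g and Aif1. Of the 8 that did not pass, Tyrobp, Adgre1, Csf1r and Spi1 had log2 fold changes of 0.02, −0.29, 0.06 and 0.05. Mertk, Ptprc and Itgam had 0.001, 0.09 and −0.39. Cd14 averaged 41.3 ± 17.3 FPKM with GCA and 76.3 ± 3.80 with PBS and did not pass (limma adjusted p = 0.0852). Mertk and Cd14 were named after their values were seen. The summed FPKM of the 20 markers was 16301 to 17676 in GCA libraries and 18765 to 20922 in PBS libraries. Without Lyz2 the sum was 7985 to 8318 in GCA libraries and 6140 to 6703 in PBS libraries. None of the 20 was at 0, and Ccr2 was lowest, at up to 0.05 FPKM with GCA and up to 0.08 with PBS. Of 12 stromal markers 11 were tested, 3 fell (Col1a2, Col3a1 and Pdgfrb) and 8 did not pass, against 6.43% lower over all tested genes, with a summed FPKM of 2504 to 2698 in GCA libraries and 2879 to 3123 in PBS libraries. The part of either shift in the changes of the family genes was not tested.

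Of 10 neutrophil markers 5 (S100a9, Ltf, Ngp, Cxcr2 and Retnlg) were not analysed here, 4 were tested and Csf3r rose, against 11.5% of all tested genes. The 5 with values summed to 20.9 to 28.9 FPKM with GCA and 20.8 to 25.2 with PBS, and Mpo held 0 or 1 fragment per library. Of 8 mast cell and basophil markers 1 was not analysed here and only Mcpt8 was tested, and it fell, averaging 1.52 ± 0.31 FPKM with GCA and 4.66 ± 0.95 with PBS (limma adjusted p = 0.00191). No lymphocyte marker of 8 was tested and 5 were not analysed here, and the other 3 had a summed FPKM of 0.18 to 0.19 with GCA and 0.04 to 0.20 with PBS. Of 6 endothelial markers 1 was tested and did not pass, with summed FPKM of 2.41 to 2.92 with GCA and 2.42 to 2.63 with PBS. The part of these cells in the levels of the family genes was not tested.

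The tested genes whose profile over the 6 libraries lay closest to that of Il1a, by the root mean square difference in log2(FPKM + 1) from the PBS mean, were Ascl2, Entpd1, Pf4, P2ry13 and Gbp8. Their differences from Il1a were 0.23, 0.23, 0.24, 0.25 and 0.26 log2 units. Ascl2, a transcription factor, averaged 6.44 ± 0.17 FPKM with GCA and 1.27 ± 0.27 with PBS. Entpd1, the ectonucleotidase CD39 that degrades extracellular ATP, averaged 26.6 ± 2.28 FPKM with GCA and 8.78 ± 0.64 with PBS. P2ry13, an ADP receptor, averaged 15.5 ± 2.22 FPKM with GCA and 5.38 ± 0.63 with PBS. Because the measure spans both groups, it mostly reflects a rise of similar size on this scale.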

How the data were processed

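The deposited files hold 1 value per Ensembl gene and library, with no unit in the headers or labels. The values deposited by the authors were taken as FPKM: multiplied by the exon-union length in GENCODE M21, 92.7% to 92.9% of matched values per library (90.8% to 91.04% of those above 0) came out whole, within 0.02 fragment, over 1 total per library. The submitters' processing notes name Bowtie 0.12.2, mm8 and mm9 without saying what each was for; the counter, annotation, filters and strand setting are not given in those notes. Coordinates are from GENCODE M21 or RefSeq on GRCm38, attached by gene, not from the authors' alignment. Of 27263 genes 27204 matched.

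limma 3.58.1 in R 4.3.3 fitted treatment to log2(FPKM + 1), with trend and robust moderation, over genes averaging 1 FPKM or more. Tests are two-sided. The values are not counts, so limma-voom on recovered fragments was an alternative only. The limma-trend fit was tested on simulated data with equal scatter in every library, and limma-voom was not tested in that way. Libraries of one group differed by more than sampling noise (chi-square on recovered fragments, averaged over genes, of 7.21 to 20.2 among GCA libraries and 5.37 to 6.35 among PBS libraries). The higher GCA values were those of GCA replicate 2, at 12.8 with replicate 1 and 20.2 with replicate 3. GCA replicates 1 and 3 gave 7.21. Depth limits low genes, and the Poisson intervals cover counting error only.

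The genes, lists and tests were chosen with earlier results of these data known. Named genes are the 10 family genes, the list members that passed, up to 4 further members per list by highest mean FPKM, and the 5 genes nearest to the family gene with the largest change. Motif matches, ranges and plots were made with Python 3.11.15 and matplotlib 3.10.9. Alternatives were other normalizations, filters, pseudocounts and moderation, the replicate number as a block, and leaving out each library.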

Additional observations from a re-analysis of the deposited data

How the results depend on the processing

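The number of family genes called was 4 of 7 tested, and it was 3 to 5 under every alternative run, though not always of 7. It was 3 of 10 in the fit to every listed gene, where 3.94% of all genes passed. With the filter at a mean of 5 FPKM it was 3 of 4, where 25.4% of all genes passed. The other alternatives tested 7, and 10.3% to 22.7% of all genes passed in them. Il1a, Il18 and Il18bp were called higher in each alternative that tested the gene (Il1a is absent from the filter at a mean of 5 FPKM). Their log2 fold changes were 1.36 to 2.94, 0.54 to 0.67 and 0.80 to 0.91. The fall of Il1rn was lost in 5 alternatives and Il1r1 was called lower in 4, as given above. Over all genes 2151 passed, and 1075 without a filter on low values, where 27263 genes share the adjustment; there 3 inflammasome and release genes and 0 of receptor signalling were called. Leaving out 1 library gave 1232 to 2088 calls over all genes (1375 without GCA replicate 1, 1308 without PBS replicate 2, 1232 without PBS replicate 3), 3 to 7 for inflammasome and release genes, 0 to 3 for receptor signalling and 2 to 5 for genes induced by interleukin-1. The share of calls that were higher was 64.2%, and 53.8% after quantile normalization. Deviations from the group means correlated at 0.08, 0.03 and 0.07 for replicate numbers 1 to 3 across genes. These values cannot show whether equal replicate numbers mark a pair, and the labels do not say. With the replicate block 4 family genes were called, 2094 genes in all, 6 inflammasome and release genes (against 8; Naip5 at an adjusted p of 0.0709 and Aim2 at 0.0671), 2 of receptor signalling (against 1) and 7 of those induced by interleukin-1 (against 3). Receptor signalling had 2 calls with the filter at a mean of 5 FPKM, and limma-voom gave 3 there and 5 for genes induced by interleukin-1. The alternatives for these list counts were chosen after seeing the data, and causes were not tested. Depth limits Il1b, Il33, Il1r2 and Il18r1, which held at most 8 fragments in any library.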
